A study of Mus musculus with 8 samples.

Results

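Exonic summits away from promoters were the ATAC-seq peak summits in brown adipose tissue (BAT) that lay in an exon of a RefSeq mRNA and more than 1 kb from the transcription start site (TSS) of every RefSeq mRNA, on chromosomes 1 to 19. There were 2221 of them among 31729 summits on these chromosomes (7.0%, 95% Wilson interval 6.72% to 7.29%), in a list of 32173 summits in all. They made up 10.4% of the 21458 summits over 1 kb from a TSS and 41.8% of the 5313 summits in an exon at any distance. The 2221 exonic summits were in 1681 genes. The mice were 2 WT and 2 Dot1L-BKO animals, 12 weeks old, kept on chow and killed after 4 hr at 4°C, and nuclei from their BAT were used for ATAC-seq. Dot1l encodes the histone H3K79 methyltransferase that the study linked to thermogenic genes. Dot1L-BKO mice carried floxed Dot1l alleles and a Ucp1-Cre transgene, so that the deletion was limited to Ucp1-expressing cells and the other cells of the tissue kept Dot1l. The deposited list gives 1 position and 1 score for each peak. Its label sets the WT libraries against those of Dot1L-BKO, and if the latter were the peak caller's control, a score would stand for WT signal over Dot1L-BKO signal, which could not be settled here. The list holds no value per mouse or genotype, so that no replicate error could be given and WT could not be compared with Dot1L-BKO.

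ATAC-seq reads where a transposase can enter chromatin. Such sites are mostly promoters and enhancers, the DNA elements that bind transcription factors, and these lie mainly outside coding sequence. Exons can still be accessible. Some hold an enhancer or an alternative start, and the exons of highly transcribed genes can have loosened nucleosomes. Exons also differ from introns in base composition, being richer in G and C, and transposase insertion and library amplification are known to depend on base composition. BAT burns lipid for heat, with uncoupling protein 1 (Ucp1) as its defining gene. A summit is the point of highest signal in a peak, and its score is the −log10 of the peak's q-value as given by the peak caller MACS2. A score rises with read depth as well as with enrichment, so that it ranks peaks and does not measure an amount of open chromatin.

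Sequences are given for 5 exonic summits near introns or in short coding exons, because they show where in the gene the signal peaked: the highest coding summits of Grn, Afap1, Plin1, Fasn and Ucp1. They are read from the mm10 genome (GRCm38.p6), 5′ to 3′ on the strand of the gene, up to 100 bp on each side of the summit, with coding exon bases in capitals and intron bases in lower case. UTR bases were left out, so that the Grn sequence begins at its start codon.
Grn exon 2 (chr11:102432972-102433135, plus strand): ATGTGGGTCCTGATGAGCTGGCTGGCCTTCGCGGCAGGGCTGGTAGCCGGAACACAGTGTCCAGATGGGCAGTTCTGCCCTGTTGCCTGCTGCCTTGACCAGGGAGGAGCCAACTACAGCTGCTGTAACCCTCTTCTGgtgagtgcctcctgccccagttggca
Afap1 exon 5 (chr5:35948042-35948242, plus strand): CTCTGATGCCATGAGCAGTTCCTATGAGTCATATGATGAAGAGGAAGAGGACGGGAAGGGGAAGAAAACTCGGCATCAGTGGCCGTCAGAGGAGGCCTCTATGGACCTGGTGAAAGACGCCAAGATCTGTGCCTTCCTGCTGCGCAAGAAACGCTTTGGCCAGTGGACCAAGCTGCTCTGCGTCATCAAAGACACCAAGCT
Plin1 exon 3 (chr7:79729817-79730017, minus strand): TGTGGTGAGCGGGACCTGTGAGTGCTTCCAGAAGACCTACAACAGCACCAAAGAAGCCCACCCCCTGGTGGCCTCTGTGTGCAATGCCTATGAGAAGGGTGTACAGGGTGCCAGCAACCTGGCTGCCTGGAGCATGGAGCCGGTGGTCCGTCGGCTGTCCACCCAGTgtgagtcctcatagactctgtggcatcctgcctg
Fasn exon 20 (chr11:120815315-120815515, minus strand): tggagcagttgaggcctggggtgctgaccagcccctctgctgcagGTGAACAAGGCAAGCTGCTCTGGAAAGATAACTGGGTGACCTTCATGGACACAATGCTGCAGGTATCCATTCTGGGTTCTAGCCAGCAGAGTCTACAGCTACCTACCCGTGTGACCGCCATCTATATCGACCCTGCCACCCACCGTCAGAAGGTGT
Ucp1 exon 5 (chr8:83295191-83295391, plus strand): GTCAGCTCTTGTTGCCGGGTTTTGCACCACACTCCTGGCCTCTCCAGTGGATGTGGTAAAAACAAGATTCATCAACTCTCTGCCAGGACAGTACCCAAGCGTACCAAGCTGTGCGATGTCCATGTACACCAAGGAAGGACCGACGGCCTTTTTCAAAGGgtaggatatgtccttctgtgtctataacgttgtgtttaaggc
The GC content of these 5 sequences was 61.6%, 53.7%, 60.2%, 56.2% and 49.8%, in the order shown, and they held 3, 7, 4, 4 and 6 CpG dinucleotides.

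A second set shows summits inside longer coding exons, up to 50 bp on each side of the summit, with each CpG in capitals. CpG-dense sequence is typical of promoters and is usually depleted in the rest of the genome.
Plin4 exon 5 (chr17:56104727-56104827, minus strand): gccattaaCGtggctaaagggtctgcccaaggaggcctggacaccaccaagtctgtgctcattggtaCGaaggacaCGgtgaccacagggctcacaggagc
Tsc22d2 exon 1 (chr3:58416245-58416345, plus strand): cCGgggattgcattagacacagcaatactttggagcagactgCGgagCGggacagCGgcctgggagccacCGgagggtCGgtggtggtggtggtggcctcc
Zfp771 exon 3 (chr7:127254390-127254490, plus strand): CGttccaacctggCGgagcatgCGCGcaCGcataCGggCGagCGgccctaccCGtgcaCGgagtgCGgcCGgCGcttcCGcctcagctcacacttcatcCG
Orai3 exon 2 (chr7:127774107-127774201, plus strand): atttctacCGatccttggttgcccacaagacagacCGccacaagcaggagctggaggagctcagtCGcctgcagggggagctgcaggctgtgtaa
Zfp771, a zinc finger gene, held 15 CpGs in this stretch, against 6 in Tsc22d2 and 3 in Plin4. Dense CpGs were thus present at some of the summits with high scores and sparse at others.

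Few of the exonic summits were centred on sequence that occurs more than once, where a read of 50 bases has no single position unless its mate gives one. Across all 2221 exonic summits, 54 (2.43%, interval 1.87% to 3.16%) had a central stretch of 50 bases that occurred again on the chromosomes, as against 12.0% of intronic summits and 22.9% of intergenic summits over 1 kb from a TSS. Plin4 exon 5, with a score of 58.1, was among these 54, with 1 further copy of its 50 bases. Aldoa, Tk1 and Muc13 were others.

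Internal and last exons held most of the exonic summits in near equal numbers. Internal exons had 1073 (48.3%, interval 46.2% to 50.4%), last exons 1031 (46.4%, interval 44.4% to 48.5%), first exons 46 (2.07%) and genes of a single exon 53 (2.39%). The remaining 18 lay in exons that different mRNAs use as different classes. A first exon has to reach over 1 kb from its own start to qualify, which few do. Coding sequence held 1442 summits (64.9%), 3′UTRs 694 (31.2%) and 5′UTRs 43 (1.94%), and for 42 the mRNAs of the gene disagreed. In internal exons 94.6% were in coding sequence. In last exons 65.7% were in the 3′UTR and 32.6% in coding sequence.

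Per length, exons over 1 kb from a TSS held more summits than introns or intergenic sequence. The density was 40.9 summits per Mb in exons (exact Poisson interval 39.2 to 42.7, over 54.3 Mb), 12.2 in introns and 6.15 in intergenic sequence. Density fell with distance from a TSS in all 3 kinds of sequence. At 1 to 2 kb it was 145 per Mb in exons, 54.5 in introns and 26.9 in intergenic sequence. At 10 to 50 kb it was 22.9, 12.5 and 9.86, and beyond 50 kb it was 8.45, 5.06 and 3.40. Exons were the densest of the 3 in each distance range, and their intervals overlapped those of introns in none of them.

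**Figure D1:**
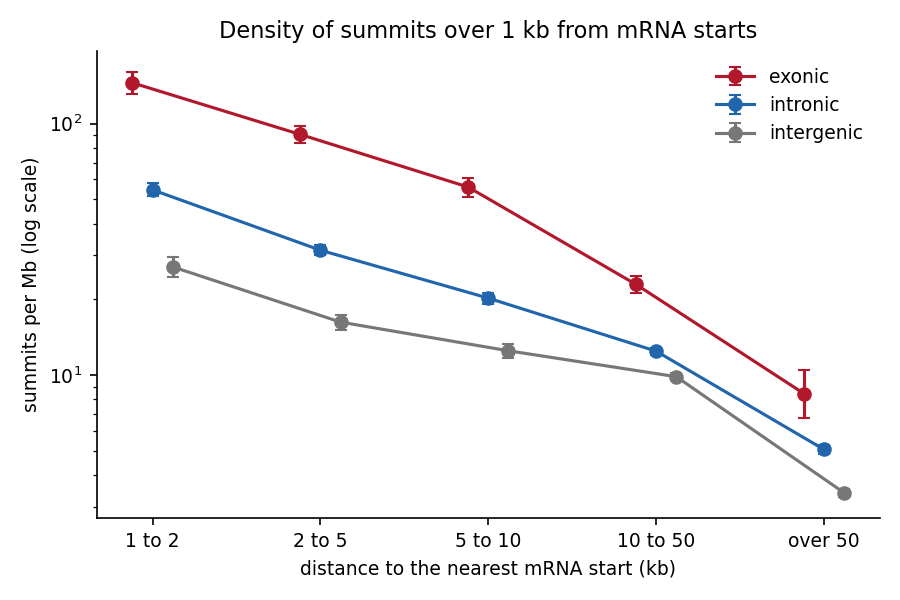
Summits per Mb (log scale) by distance to the nearest mRNA start in kb, for exonic, intronic and intergenic sequence over 1 kb from a start. Points are densities over the whole list and bars are 95% exact Poisson intervals, which cover counting error only; exons run from 145 per Mb at 1 to 2 kb down to 8.45 beyond 50 kb, above introns throughout.

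GC content moved strongly with these densities. Each base was sorted by the GC content of the sequence up to 100 bp on each side of it. In exons the density rose from 0.400 summits per Mb under 40% GC to 14.3 at 45 to 50%, 42.0 at 50 to 55%, 110.1 at 55 to 60% and 208 at 65% or more. At equal GC the difference between exons and introns was much smaller than the overall one. Introns had 10.4 at 45 to 50%, 32.6 at 50 to 55% and 86.8 at 55 to 60%. From 60% the order turned, with 167 in exons, 183 in introns and 232 in intergenic sequence at 60 to 65%, and with 208, 280.4 and 281 at 65% or more. The Poisson intervals of exons and introns overlapped under 45% and at 60 to 65% GC and were apart in the other ranges. The median GC content around exonic summits was 57.7% (quartiles 54.7% and 60.7%), against 53.7% around intronic and 54.2% around intergenic summits over 1 kb from a TSS. The part of base composition in the exonic summits was not tested.

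**Figure D2:**
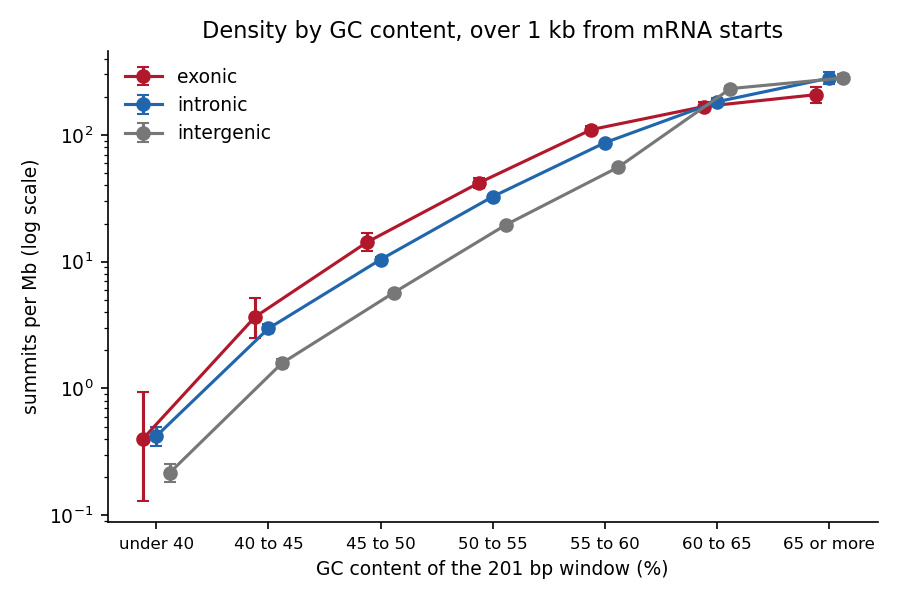
Summits per Mb (log scale) by GC content in percent of the window of 100 bp on each side, for exonic, intronic and intergenic sequence over 1 kb from mRNA starts, with 95% exact Poisson intervals. Exons lie above introns between 40% and 60% GC and below them from 60% GC, with overlapping intervals at 40 to 45% and 60 to 65%, and all 3 kinds of sequence climb by over 100-fold from the lowest to the highest GC.

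Genes with a summit at their own promoter held more exonic summits. A summit within 1 kb of the gene's own TSS was present for 76.7% of exonic summits and for 74.8% of intronic summits over 1 kb from a TSS. Exons of genes with such a promoter summit had 58.0 summits per Mb, against 20.8 in genes without one. Introns had 20.7 and 5.48. The difference held at equal GC, for example 63.2 against 17.7 in exons of 50 to 55% GC and 155 against 54.4 at 55 to 60% GC. Of 9266 genes with a promoter summit and exon sequence over 1 kb from a TSS, 13.7% (interval 13.02% to 14.4%) held an exonic summit, against 4.40% (interval 4.00% to 4.83%) of 9341 genes without.

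Exonic summits had low scores. Their median was 3.75 (quartiles 2.53 and 5.46), below the 4.16 of intronic and the 4.39 of intergenic summits over 1 kb from a TSS and below the 8.65 of summits within 1 kb. A score of at least 10 was reached by 152 exonic summits (6.84%, interval 5.87% to 7.97%), against 23.6% of all summits. The share was 13.1% in introns, 17.7% in intergenic sequence and 42.9% within 1 kb of a TSS. By exon class it was 6.34% in internal, 7.57% in last, 9.43% in single and 2.17% (1 of 46) in first exons, with intervals that overlapped. The scores take a limited number of values, so that many peaks tie.

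**Figure D3:**
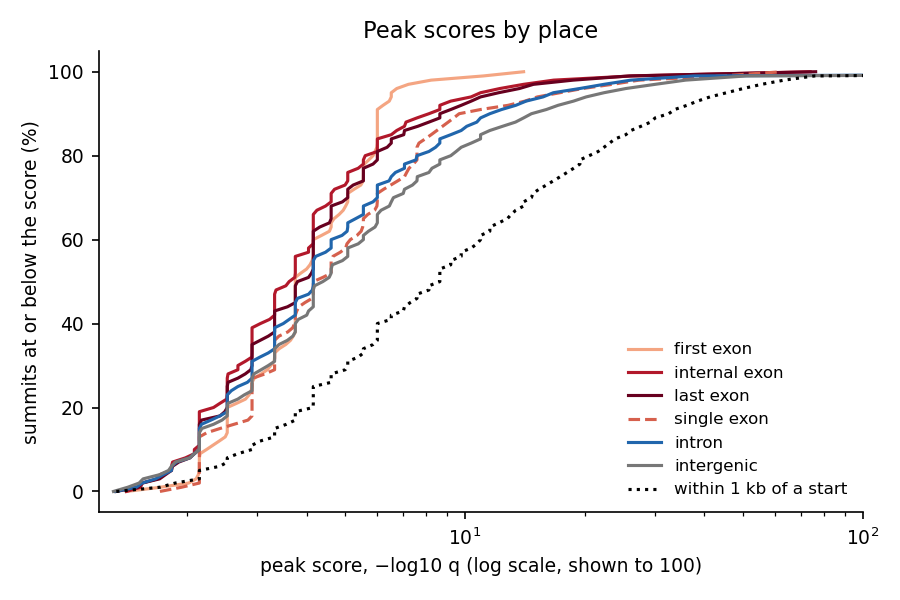
Share of summits in percent at or below each peak score (−log10 q, log scale, drawn to 100), by place; introns and intergenic sequence are those over 1 kb from a start. First exons end at 14.04, the other exon curves lie left of introns and intergenic sequence over most of their range, except that single exons run near introns, and summits within 1 kb of a start lie to the right of all others from 6% to 99% of the summits.

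In internal exons, the highest scores were in Grn, Plin4, Brd2, Urb1, and, tied, Afap1 and Angptl6. Grn, the gene of the secreted lysosomal protein progranulin, had a score of 73.7 in exon 2 of 13, 2528 bp from its TSS. Plin4, which encodes a lipid droplet coat protein, had 58.1 in exon 5 of 8. Brd2, a reader of acetylated histones, had 56.6 in exon 2 of 13, in the 5′UTR and 122 bp from the start of a noncoding or model transcript. Urb1, a ribosome biogenesis factor, had 50.3 in exon 38 of 39. Afap1, which encodes a protein that binds actin filaments, had 46.4 in exon 5 of 17, and this summit was 54823 bp from its TSS. Angptl6, an angiopoietin-like secreted protein, had the same score in exon 2 of 6, 252 bp from the start of a noncoding or model transcript. So 2 of these 6 summits, those of Brd2 and Angptl6, lay near an annotated start of another kind. The other 4 were at least 1 kb from every annotated start searched.

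Internal exons with a summit were longer and richer in GC than those without. Median exon length was 175 bp against 124 bp, and median GC content 58.8% against 50.8%. Among 159750 internal exons with sequence over 1 kb from a TSS, 0.662% held a summit. The share rose from 0.0282% of exons under 45% GC to 2.66% of exons with 60% GC or more. Of these exons, 52210 were of 100 bp or less and 85741 were longer than that but of at most 200 bp. Summit density was 34.5 and 41.5 per Mb in these groups, against 45.8 in longer exons of up to 500 bp and 67.2 in those over 500 and up to 1000 bp. Above 1000 bp it was lower again, at 57.1 per Mb. The list gives no peak widths, so that the extent of the open region around the summits is not known. Summits lay 47 bp (median) from the nearer exon edge. Exon 2 held 193 of the 1073 (17.99%), exon 3 held 111 and exon 4 held 106, while 27.03% were in exons numbered above 10. Neither the edge distance nor these counts were set against all internal exons or their bases, so that no preferred position can be read from them. Their median distance to the start of their own mRNA was 7439 bp.

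In last exons, high scores were found in Iffo1 (45.5), Lars2 (33.3), Orai3 (31.7) and Btbd19 (30.1). Iffo1, an intermediate filament family gene, and Lars2, the mitochondrial leucyl-tRNA synthetase, had their summit in the 3′UTR, 189 and 682 bp from the transcript end. Orai3, a calcium channel subunit, had it in coding sequence. Per length, coding sequence of last exons had 62.7 summits per Mb (interval 56.2 to 69.8) and their 3′UTRs 28.8 (interval 26.7 to 31.1). At equal GC this order was not kept. At 45 to 50% GC the 3′UTRs had 21.6 per Mb and the coding sequence 7.22, at 50 to 55% they had 50.4 and 33.6, and at 60 to 65% the values were 186 and 188. The intervals of the 2 parts overlapped in each GC range except 45 to 50%.

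Last-exon summits were densest at middle distances from the transcript end. Density was 27.2 per Mb (interval 22.5 to 32.6) in the last 250 bp, 43.6 (interval 37.1 to 50.9) between 250 and 500 bp, 46.3 between 500 and 1000 bp, 38.4 between 1000 and 2000 bp and 26.2 (interval 22.6 to 30.1) farther from the end. The median distance to the transcript end was 903 bp. Of 20102 last exons, 4.46% held a summit, from 0.416% of those under 45% GC to 18.5% of those with 60% GC or more. Last exons with a summit had a median length of 1642.5 bp against 1087 bp without and a median GC content of 54.4% against 45.8%.

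**Figure D4:**
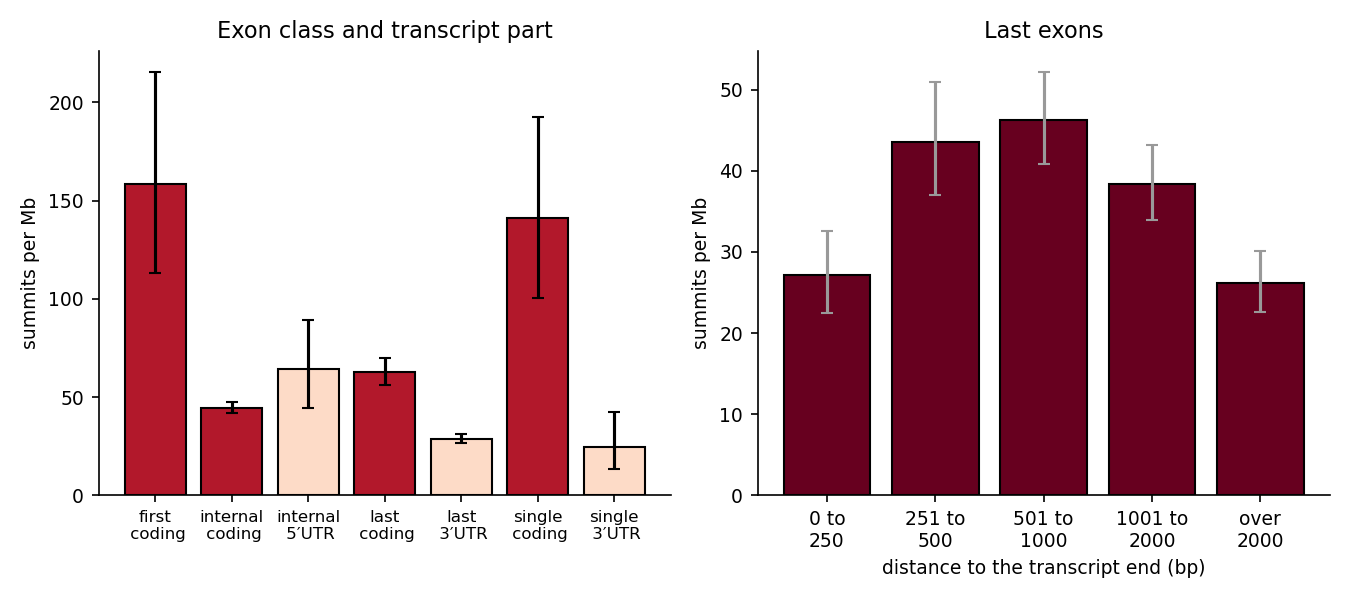
Summits per Mb over 1 kb from mRNA starts, by exon class and transcript part (left, coding sequence dark and UTR light) and, for last exons, by distance to the transcript end in bp (right). Bars start at 0 and error bars are 95% exact Poisson intervals; first and single coding exons reach 158 and 141 per Mb, last-exon 3′UTRs 28.8, and the last 250 bp of transcripts 27.2.

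First exons over 1 kb from a TSS had the highest density of the exon classes, 142 summits per Mb (interval 104 to 189), on only 0.324 Mb of sequence. Their 46 summits lay close to the 1 kb limit, at a median of 1408.5 bp from the TSS, and 40 were in coding sequence. Another summit lay within 1 kb of 52.2% of them, against 28.3% of all exonic summits. The highest was in Tsc22d2 (14.04), followed by Irs2 (7.58), an adaptor of the insulin receptor, Arc and Wnk1 (both 6.53) and Ppp1r9b (6.02). The Wnk1 summit, in the gene of a kinase that controls ion transport, was 316 bp from a coding start in the GENCODE M21 annotation, although 1312 bp from the nearest RefSeq mRNA start. Such starts lay within 1 kb of 19.6% of first-exon summits and of 3.74% of all exonic summits.

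Single-exon genes held 53 summits, of which 39 were in coding sequence, at 65.8 per Mb over the whole exon and 141 per Mb in coding sequence. Jund, which encodes an AP-1 transcription factor, had the highest score, 62.5, at 1034 bp from the RefSeq start. A GENCODE coding start lay 176 bp away, so that the Jund summit was promoter-distal in only 1 of the annotations. Ier2, an immediate early gene, had 27.7, Klhdc7a 20.1 and Mab21l2 15.5. Windows around single-exon summits were CpG-rich (over 50% GC and an observed to expected CpG ratio above 0.6) in 50.9% of cases and those around first-exon summits in 45.7%. This share was 13.8% in internal and 11.2% in last exons, 14.2% over all exonic summits and 28.2% over all summits.

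Genes of the lipid list held exonic summits more often than genes at large. Beside genes of lipid storage and turnover, this list has genes of glucose uptake and insulin signalling (Slc2a4, Irs1, Irs2) and the transcription factor gene Cebpa. Of its 48 genes with exon sequence over 1 kb from a TSS, 19 (39.6%, interval 27.02% to 53.7%) held at least 1, against 1681 of 18607 genes (9.03%, interval 8.63% to 9.45%). They had 44 summits, or 251.1 per Mb against 42.3 over all genes. Their median score, 3.75, was that of all exonic summits. A promoter summit was present in 87.5% of these genes, against 49.8% of all, and their exons had 51.2% GC, against 48.02%. The density of all exons at each GC level would give 10.8 summits in the lipid genes' exon sequence, and the density at each GC level and promoter state would give 13.2. Fasn and Plin1 gave 11 of the 44.

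Fasn, the fatty acid synthase, had 7 exonic summits in 7 exons, shared with Atxn1 as the highest number in a gene. They lay in coding exons 5, 8, 9, 20, 25, 28 and 34 of 43, with scores from 2.45 to 5.07, spread from 3950 to 13831 bp after the TSS. Of 3 summits within 1 kb of the Fasn TSS, the one 64 bp before it had a score of 14.04 and the others had 9.78 and 3.58. All 7 exonic summits thus scored below the highest promoter summit, and 2 of them scored above the lowest. Plin1, a coat protein of lipid droplets that controls lipolysis, had 4 exonic summits, in exons 3, 5, 8 and 9 of 9, with scores of 15.4, 8.65, 11.5 and 13.4. The summit 4 bp before its TSS had a score of 23.1. The 4 Plin1 summits were above the median of exonic summits and in windows of 60.2% to 65.7% GC.

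Slc2a4, the insulin-regulated glucose transporter, had 3 exonic summits in exons 3, 6 and 9, with scores of 4.16, 3.44 and 4.16. Acadvl, a mitochondrial dehydrogenase of very long-chain fatty acids, had 3 in exons 10, 11 and 15, with scores of 2.15, 3.32 and 2.15. They lay 561, 229 and 805 bp from the nearest start of a noncoding or model transcript. Lipe, the hormone-sensitive lipase, had 2, and Scd1, the stearoyl-CoA desaturase, had 2 in its 3′UTR with scores of 8.12 and 2.53. The receptor gene Lrp1 had 4, the highest of 13.7 in exon 24 of 89. Irs1 had 3 and Irs2 had 2 in the long coding first exon that both genes have. The Irs2 summit with a score of 5.07 was at 0 bp from the start of a noncoding or model transcript. Dgat2, Lpin1, Srebf1, Plin2, Cidec, Gpam, Mgll, Angptl4 and Cebpa also held exonic summits, with scores of at most 4.61.

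**Figure D5:**
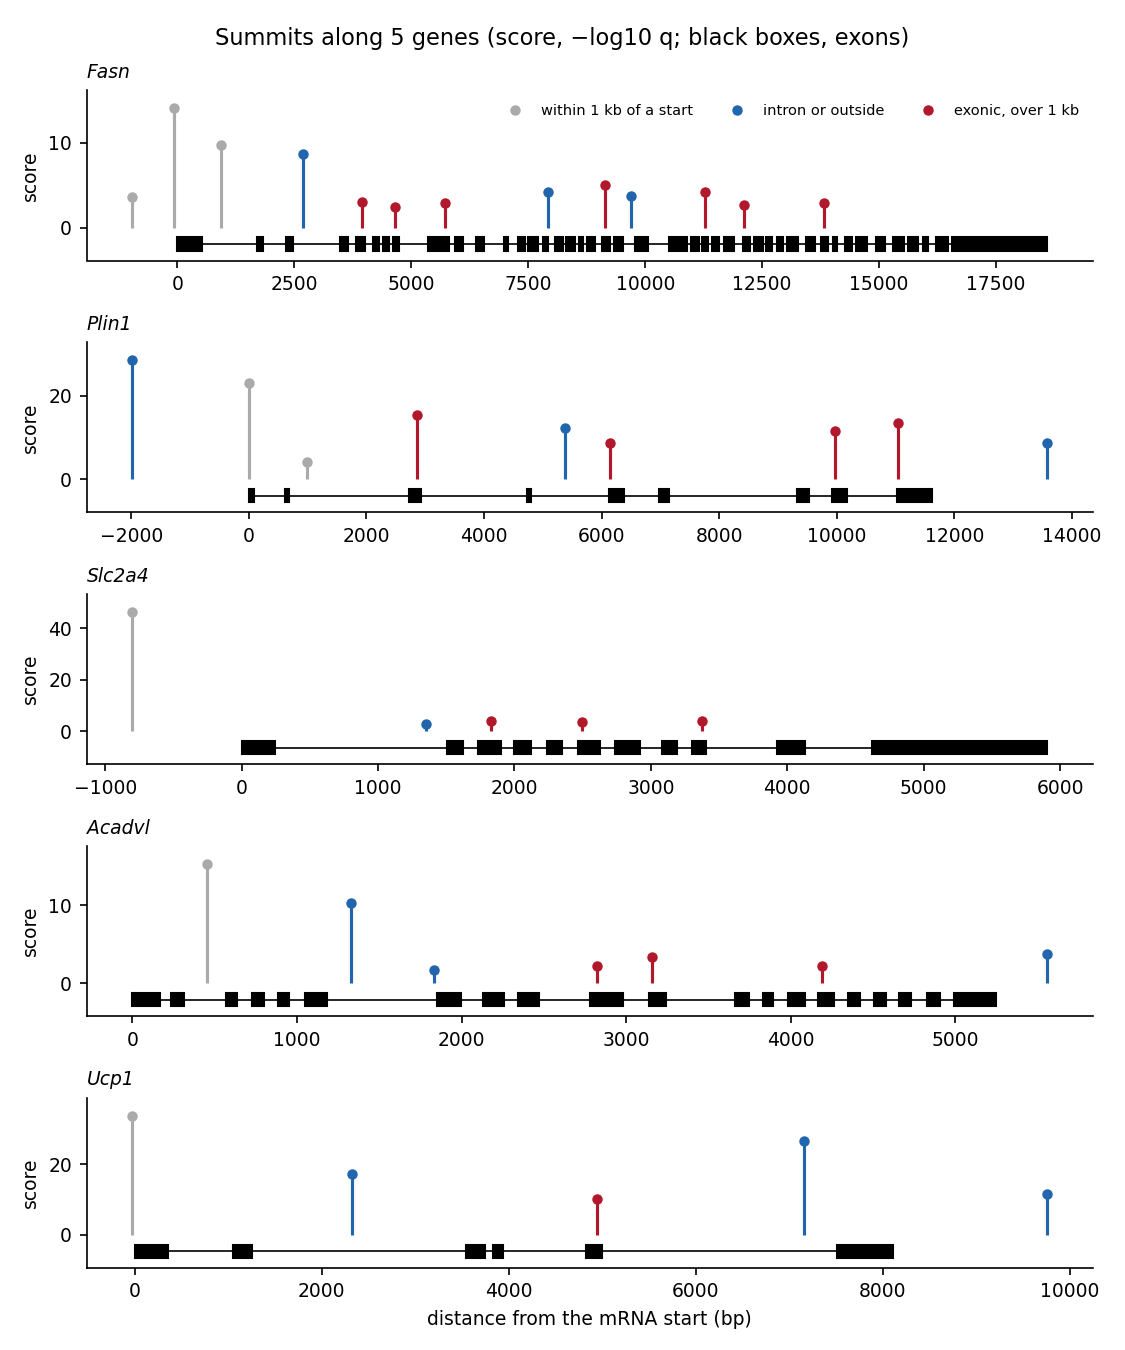
Summits along Fasn, Plin1, Slc2a4, Acadvl and Ucp1, drawn to scale by distance in bp from the mRNA start, with the score (−log10 q) as height on a separate scale for each gene. Red marks exonic summits over 1 kb from a start, blue those in introns or outside the gene, grey those within 1 kb of a start and black boxes exons; the 7 red marks of Fasn stay at or below 5.07 while its highest promoter summit reaches 14.04.

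Thermogenic genes also held exonic summits more often than genes at large. Of 58 genes, 16 (27.6%, interval 17.8% to 40.2%) held at least 1, with 21 summits at 103 per Mb. The density of all exons at each GC level would give 10.2 and that at each GC level and promoter state 11.9. The intervals of the thermogenic and lipid shares overlapped. Their promoter summits were present in 72.4%. The 16 included Ucp1, Ppargc1a, Dio2 and Adrb3, while most of the 58 genes held none.

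Ucp1 had 1 exonic summit, with a score of 10.05, in coding exon 5 of 6 at 4943 bp from its TSS. Its promoter summit, 26 bp before the TSS, had 33.7, and 2 intronic summits had 17.2 and 26.6, so that the exonic one was the lowest of the 4 within the gene or at its start. Ppargc1b, a coactivator of mitochondrial genes, had 14.6 in its 3′UTR, 818 bp from the start of a noncoding or model transcript, and 3.32 in exon 6. Pdk4, a kinase that limits pyruvate oxidation, had 9.21 in its 3′UTR and 5.07 in exon 4. Adrb3, the β3-adrenergic receptor, had 2 exonic summits in exon 2 (5.07 and 3.35) and no summit within 1 kb of its TSS. Both lay within 1 kb of a GENCODE coding start, at 943 and 385 bp. Dio2, which activates thyroid hormone, had 4.16 in its 3′UTR, and Thra, a thyroid hormone receptor, had 7.05 there. Ppargc1a had 3.75 in exon 8 and Nr4a1 had 4.16 and 3.32.

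Dot1l itself had an exonic summit, of 4.55, in coding exon 25 of 28 and 9113 bp from the nearest TSS. Zc3h10, the transcription factor that the study pairs with Dot1l, had one of 4.61 in the coding part of its last exon, 2460 bp from the TSS. Whether these differed between WT and Dot1L-BKO mice cannot be read from the list.

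The other gene lists varied around the 9.03% of all genes and the 42.3 summits per Mb over all genes, and their order differed between the share and the density. Chromatin regulators held exonic summits in 11 of 66 genes (16.7%, interval 9.57% to 27.4%), at 38.2 per Mb, with 18 summits where the density at each GC level would give 23.9 and that at each GC level and promoter state 29.9. The highest were in Brd2 and Ncoa2 (7.58). Respiratory chain genes held them in 5 of 82 (6.10%, interval 2.63% to 13.5%), and 90.2% had a promoter summit. They have little exon sequence that far from a TSS, a median of 521.5 bp. Per length their 6 summits came to 101.8 per Mb, on 0.0590 Mb, too few to set this density against that of other lists. The density at each GC level would give 2.08 summits and that at each GC level and promoter state 2.76. Atp5g3, an ATP synthase subunit, had 6.02 and Ndufa11, a complex I subunit, 4.61. Zinc finger genes held them in 30 of 411 (7.30%, interval 5.16% to 10.2%), at 28.8 per Mb, with Zfp771 (30.1) and Zfp385a (9.78) the highest. Their 43 summits were close to the 43.6 that the density at each GC level would give and the 47.4 at each GC level and promoter state. Collagen genes held them in 4 of 42 (9.52%, interval 3.77% to 22.1%), at 20.4 per Mb, the highest in Col23a1 (4.64) and Col8a2 (4.61). They had 5 summits where the same densities would give 13.6 and 11.1.

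Genes typical of muscle and neurons had low densities, and few of them had a promoter summit. Sarcomere genes, among them the longest coding sequences of muscle, held exonic summits in 3 of 27 (11.1%, interval 3.85% to 28.1%, against 9.03% of all genes), at 12.6 per Mb against 42.3, with the highest in Mybpc2 (4.16). A promoter summit was present in 3.70% of them, and their 3 exonic summits compare with 11.8 from the density at each GC level and 6.23 from that at each GC level and promoter state. Protocadherin genes, which work in neurons, had 1 of 67, Pcdh17, with 6.02 and 3.18 in its first exon. A promoter summit was present in 2.99% of them, and the same densities would give 12.8 and 7.26 summits where 2 were seen. Olfactory receptor genes had 0 of 277, which allows a share of up to 1.08% (3 counts of the total), and none had a promoter summit. They have a median of only 121 bp of exon sequence over 1 kb from a TSS, where those densities would give 1.85 and 0.818 summits, so that a shortfall was not detectable. Of 9 histone genes with such sequence only H1f8 had one (5.07), on 0.00720 Mb of exon sequence, too little for a density. Among marker genes of the tissue, 7 of 8 brown adipocyte genes had a promoter summit by RefSeq starts, against 49.8% of all genes, Adrb3 being the exception. Endothelial cells had 1 of 4 (Cdh5), macrophages 1 of 4 (Cd68), hepatocytes 1 of 4 (Apoa1) and skeletal muscle 0 of 4.

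Most genes held 1 exonic summit. The number was 1 in 1270 genes, 2 in 314, 3 in 61, 4 in 23 and 5 or more in 13, and 54 genes held them in 3 or more exons. Atxn1, the gene of ataxin-1, had 5 of its 7 in the 3′UTR of its last exon of 7831 bp, with scores from 2.15 to 8.65 over the gene. Crat, a carnitine acetyltransferase, had 5 with a highest score of 9.21. Git1, Mast3, Nbeal2, Pcnx3, Plec, Rasip1, Sbno2, Tns1 and Zfp469 also had 5. Eppk1, a cytoskeletal linker with highly repeated coding sequence, had 5, of which 3 were in stretches of 50 bases found again on the chromosomes. An exon held 2 or more summits in 149 of the 2043 exons with any.

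Few exonic summits lay in repeats. The summit base was in a masked repeat in 3.11% of them (interval 2.46% to 3.91%), against 12.2% of all summits. Intronic summits over 1 kb from a TSS had 12.7% and intergenic summits 24.3%. Masked repeats make up 9.89% of the exon bases over 1 kb from a TSS, 28.2% of intron bases and 38% of intergenic bases, so that each kind of summit was in repeats less often than its own sequence. In last exons 4.56% of summits and 14.7% of bases were masked, and in internal exons 1.58% and 3.95%. Windows around 0 of the 2221 matched the mitochondrial genome, which allows a share of up to 0.135%.

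Starts of noncoding RNAs and of predicted model mRNAs were near few exonic summits. Such a start was within 1 kb of 167 of them (7.52%, interval 6.49% to 8.69%), against 9.44% of all summits over 1 kb from an mRNA TSS. The share was 10.4% in internal exons, 4.46% in last exons and 13.04% (6 of 46) in first exons. It was 7.89% in introns and 11.7% in intergenic sequence. Starts of model mRNAs were near 81, of long noncoding RNAs near 53 and of other RNAs near 46, and a summit could be near several kinds.

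Short sequence patterns of known factors were searched on both strands within 100 bp of each summit. The C/EBP pattern TTGCNNAA, of factors that drive adipocyte genes, was in 7.16% of exonic windows (interval 6.16% to 8.31%), against 10.7% of intronic and 17.2% of intergenic windows over 1 kb from a TSS and 10.6% of all summits. In exonic summits with a score of at least 10 it was in 28 of 152 (18.4%, interval 13.1% to 25.3%). No share was taken for intronic or intergenic summits of that score, so that this value has no like background beside it. The AP-1 pattern TGANTCA was in 4.59%, against 8.22% in introns and 8.0% in intergenic sequence. Both patterns were thus less frequent in exonic windows than in the other windows far from a TSS. At the midpoints of internal exons without a summit they were present in 7.97% and 4.73%, close to the 6.62% and 4.01% of internal-exon summits.

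The SP/KLF pattern GGGCGG, typical of promoters, was in 10.1% of exonic windows (interval 8.90% to 11.4%), 6.67% of intronic, 11.05% of intergenic and 20.5% of all windows, and in 44.9% of those within 1 kb of a TSS. In exonic summits with a score of at least 10 it was in 20.4%, again without a share for other summits of that score. The ETS pattern CCGGAAG was in 3.15% (all summits 5.36%), the E-box CACGTG in 3.78% (4.70%), the NRF1 pattern GCATGCGC in 0.855% (1.37%) and the cyclic AMP response element TGACGTCA in 0.450% (1.03%). Palindromic NFI and EBF patterns were in 0.0900% (0.0536%) and 1.71% (1.34%). These words share letters with GC-rich sequence to different degrees, and the windows differ in GC content as given above.

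The CTCF pattern was more frequent in exonic windows than in the other kinds. CTCF binds insulators and loop anchors, and some of its sites lie in exons. Its core pattern was in 89 exonic windows (4.01%, interval 3.27% to 4.91%), against 2.55% in introns (interval 2.27% to 2.88%), 2.84% in intergenic sequence and 2.55% of all summits. By class it was in 3.54% of internal (interval 2.59% to 4.82%) and 4.56% of last exon windows (interval 3.45% to 6.01%). The internal-exon interval overlapped those of introns and of intergenic sequence (2.52% to 3.21%). First exons had it in 0 of 46 windows, too few to compare. The midpoints of internal and last exons without a summit had it in 1.147% and 1.38%, at a lower median GC content of 49.8% and 46.8%. The matches of the 3 highest-scoring coding summits with the pattern outside UTRs follow, with the match in capitals and 20 bp on each side. They were chosen after the values were seen, and a match is no evidence of binding.
1700020L24Rik (chr11:83440481-83440532, plus strand): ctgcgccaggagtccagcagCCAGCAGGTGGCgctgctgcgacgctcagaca
Spi1 (chr2:91115236-91115287, plus strand): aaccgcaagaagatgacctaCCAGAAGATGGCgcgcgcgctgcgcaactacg
Lpar5 (chr6:125082046-125082097, plus strand): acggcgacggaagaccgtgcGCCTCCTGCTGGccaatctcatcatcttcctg
The summits had scores of 18.1 in 1700020L24Rik, 15.5 in Spi1, a transcription factor of myeloid cells, and 15.4 in Lpar5, a receptor for lysophosphatidic acid. The match was at the summit in Spi1 and 64 and 57 bp from it in the other two.

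At the 1 kb limit, the summits just inside were in Nudt7 (score 2.53), Coro1b (4.16) and Plekha4 (2.92), and the exonic summits just outside, at 1000 bp, included those in Phf23 (7.05) and Khdc3 (4.61). Plekha4's summit was 31 bp from a GENCODE coding start. These summits are too few to compare scores on the 2 sides of the limit.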

How the data were processed

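BAT nuclei of each mouse were processed separately with the Nextera kit and sequenced as paired-end 50 bp reads. Alignment by the authors was to mm10 (BWA-backtrack, run through Partek Flow). Peaks came from MACS2 (2.1.1 per the labels), which kept those with a q-value under 0.05 and at least 2-fold enrichment. The deposited score of each summit is the −log10 of its q-value. The methods describe a union set of regions from peaks of each sample, while the label of the deposited list sets WT against Dot1L-BKO. Whether Dot1L-BKO served as control for this list is not given in the sources used here. Depth is unknown and leaving out a library was not possible. The RNA-seq samples of the series were not analysed here.

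Summits were placed with the NCBI RefSeq annotation of GRCm38.p6, the mm10 build, by curated mRNAs. Exon class is that of all mRNAs holding the base, and mixed where they disagree. The placing was checked on a simulated annotation, where 760 of 760 positions came back as made. Density is summits per Mb of sequence over 1 kb from a TSS, with exact Poisson intervals, and shares have 95% Wilson intervals. Beside a count of 0, the limit given is 3 counts of the total. Both cover counting error only, and neighbouring summits are not independent. No test was run, since the list holds no replicates. A base that is exonic in any mRNA counted as exonic. Exons were compared as distinct intervals. A gene's promoter summit is one within 1 kb of its own TSS. GC content, CpG ratio and patterns were read in windows of 201 bp. Stretches of 50 bases were compared exactly on 22 chromosomes including the mitochondrial one, and blastn 2.17.0 searched the mitochondrial genome for windows of 1001 bp (matches of at least 200 bp). Scripts used Python 3.11.15, numpy 2.4.6, pandas 2.3.3 and scipy 1.17.1.

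The genes named were the 5 highest of each exon class, up to 12 highest summits of the thermogenic and lipid lists, 8 of the genes with most summits (11 tied at 5, taken in alphabetical order), the 2 highest of each other list and 3 summits on each side of the 1 kb limit, plus genes named as examples after their values were seen (the remaining genes of both main lists, the other tied genes, repeated sequences and CTCF matches). Some items that the rule names are not reported here. The summits, gene lists and this rule were chosen with earlier results of these data known.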

Additional observations from a re-analysis of the deposited data

How the results depend on the processing

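Counts followed the score required. At a score minimum of 5, 650 exonic summits were left (290 internal, 318 last and 15 first), and at a minimum of 10, 152 (68, 78 and 1). The median score was then 6.86 and 14.04, the share near a noncoding or model start 9.08% and 11.8%, and the masked share at a minimum of 5 was 2.46%. Over 2 kb from a TSS, first exons held 9 summits and the share near such a start was 5.30%, and over 500 bp these were 160 and 11.9%. The first-exon count thus depends on the distance limit. The total was 1831 over 2 kb, 2526 over 500 bp, 2149 with summits within 500 bp merged, 2054 away from starts of any RefSeq transcript and 2138 away from GENCODE coding starts too, an alternative chosen after seeing the data. Taking the class from the mRNA with the longest coding sequence gave 1007 last-exon summits. No paired analysis was possible because each peak has 1 value and none per library, and for the same reason no replicate could be left out. Depth and the transposase's sequence preference could not be examined, and no difference between genotypes can be read from these values. Mappability was examined only through exact repeats of the central stretch of each summit, as given above, and not from reads.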
